A study of Mus musculus with 8 samples.

Results

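The genes described here are 10 regulators of mitochondrial biogenesis, the process by which a cell adds respiratory capacity and copies its mitochondrial DNA. They were chosen by symbol and matched to Ensembl identifiers in the deposited count files: Ppargc1a, Ppargc1b, Esrra, Esrrg, Nrf1, Gabpa, Tfam, Polrmt, Polg and Twnk. All 10 were found among 47643 listed genes, and all 10 passed the filter on low counts that left 13829 genes to test. The libraries were made from polyadenylated RNA of whole kidneys of 8 mice. 4 mice were wild type (WT), and 4 carried Six2-Cre with both copies of Cox10 floxed (conditional knockout, cKO). By the sample labels, replicate 2 of each group was 2.5 months old and the others 3 months. No Cre or floxed allele is named for the WT mice, and the floxed exons of Cox10 are not stated. Six2 drives Cre in the progenitors of the nephron, so vessels, interstitium, blood cells and the collecting duct are outside the deleted lineage. Cox10 encodes heme A farnesyltransferase, which makes a cofactor of cytochrome c oxidase.

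PGC-1 alpha and PGC-1 beta, the products of Ppargc1a and Ppargc1b, are coactivators that bind no DNA themselves. They are recruited by the estrogen-related receptors, of which Esrra and Esrrg are members of this set, and by other nuclear receptors, and raise the transcription of respiratory chain and fatty acid oxidation genes. NRF1 and GABP (whose DNA-binding subunit is encoded by Gabpa, and which is also called NRF2) bind the promoters of many nuclear genes for mitochondrial proteins. Tfam, Polrmt, Polg and Twnk encode the packaging and transcription factor, the RNA polymerase, the DNA polymerase and the helicase of mitochondrial DNA. The proximal tubule and thick ascending limb of the kidney are rich in mitochondria and depend on oxidative metabolism.

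The promoter sequences are shown because the set holds both factors and genes that are taught as their targets. RefSeq (GRCm38.p6) windows from 250 bases before to 50 after a start site were matched for 9 of the 10 genes, and both strands were searched. Some genes had more than 1 window (Esrrg 4, Nrf1 2 and Twnk 2). A gene is counted if any of its windows holds a match, while the shares of all windows are per single window, so the measures differ. The core GABP and ETS-family letters CCGGAAG were present for 5 of the 9 genes, namely Gabpa itself, Tfam, Polrmt, Polg and Twnk, against 8.86% of all 32851 windows of that length. The NRF1 core GCATGCGC was present for Esrra and Polrmt, against 2.71% of all windows. The full element of the estrogen-related receptors, TCAAGGTCA, was in the windows of none of the 9 genes and in 0.423% of all windows. The core AAGGTCA, which lies within the full receptor element, was found for Twnk and in 4.72% of all windows. The cyclic AMP half-site TGACGT, through which CREB is known to act on Ppargc1a, was found for Ppargc1a and in 7.51% of all windows. The full palindrome TGACGTCA, which contains that half-site, was in 1.79% of all windows and in those of none of the 9 genes. A match describes the letters in the window and is not evidence of binding. The windows below read 5′ to 3′ on the strand of the gene, with the matched letters, or their reverse complement, in capitals. The first 2 are upstream regions of a coactivator and of the mitochondrial RNA polymerase, and the other 6 are 30-base windows around a single match.
Ppargc1a, chr5:51567727-51567975, minus strand: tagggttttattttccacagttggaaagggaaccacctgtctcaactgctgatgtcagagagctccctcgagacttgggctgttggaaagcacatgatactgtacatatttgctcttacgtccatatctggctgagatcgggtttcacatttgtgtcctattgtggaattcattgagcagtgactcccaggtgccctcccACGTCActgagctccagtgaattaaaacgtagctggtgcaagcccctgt
Polrmt, chr10:79746582-79746831, minus strand: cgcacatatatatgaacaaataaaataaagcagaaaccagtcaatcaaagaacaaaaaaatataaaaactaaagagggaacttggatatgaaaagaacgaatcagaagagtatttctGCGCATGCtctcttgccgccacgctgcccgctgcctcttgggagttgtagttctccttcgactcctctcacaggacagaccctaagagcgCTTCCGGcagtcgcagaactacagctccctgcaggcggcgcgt
Esrra, chr19:6921824-6921853, minus strand: ccccctgttttGCATGCGCaggccggcccc
Gabpa, chr16:84835020-84835049, plus strand: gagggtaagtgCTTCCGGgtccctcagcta
Tfam, chr10:71238073-71238102, minus strand: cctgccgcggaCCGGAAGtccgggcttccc
Polg, chr7:79466293-79466322, minus strand: gaggacctcacCCGGAAGtccctctgcacc
Twnk, first match, chr19:45006438-45006467, plus strand: taaccggtgaCTTCCGGttccggggttgtg
Twnk, second match, chr19:45006481-45006510, plus strand: ggagagttttgCTTCCGGagtcaccgcgag
The matched letters of Tfam, Polrmt and Polg began 47, 43 and 38 bases before the RefSeq start site, and those of Twnk 110 and 66 bases before its second RefSeq start site. The printed windows of Tfam, Polg, Gabpa and Twnk lie inside the gene spans of the GENCODE annotation, which are given below. They are therefore upstream of the RefSeq start site used but not of the whole annotated gene.

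The libraries held 9454830 to 15838026 counts. Cox10 itself (chromosome 11, 63962627 to 64079468) had 21.0 ± 2.47 CPM (counts per library size, scaled by TMM) in WT and 18.4 ± 5.12 in cKO (SD, n = 4), a log2 fold change of -0.19 (edgeR adjusted p = 0.619). Without knowing the floxed exons, a total over the gene does not test the genotype. WT 1, cKO 1, cKO 2 and cKO 4 held 0 counts of 4 Y-linked genes and the others 829 to 1707, so sex is unevenly spread over the genotypes. WT 4 and cKO 4 carry later sample numbers in the file headers than the other 6. Calls are therefore given beside a fit with a sex term and a fit without WT 4 and cKO 4. Of all tested genes 7.14% were called lower and 9.57% higher at an edgeR adjusted p under 0.05. With a sex term 6.84% were called in either direction, and without WT 4 and cKO 4 it was 4.1% of the genes tested there. The marker counts below are to be read beside these shares. Among cell type markers, 5 of 14 proximal tubule genes fell and 0 rose, with summed levels of 15220 to 19483 CPM in WT and 4260 to 12746 in cKO, and 0 of these calls were kept in either of those fits. Of 8 thick ascending limb genes 2 fell and 1 rose, with sums of 3939 to 6628 and 1780 to 3405 CPM, and 3 of 6 distal convoluted tubule genes fell. With a sex term these counts were the same, and without WT 4 and cKO 4 they were 0 for the thick ascending limb and 1 lower for the distal convoluted tubule. Of 10 collecting duct genes tested 5 rose and 1 fell, with sums of 705 to 1057 and 1466 to 3145 CPM, against 1 higher with a sex term and 0 without WT 4 and cKO 4. Of 9 macrophage genes 8 rose, with sums of 91.1 to 154 and 235 to 414 CPM, and of 9 fibroblast and pericyte genes 8 rose and 1 fell, with sums of 163 to 254 and 589 to 913 CPM. With a sex term 7 macrophage and 5 fibroblast and pericyte genes were called higher, and without WT 4 and cKO 4 these counts were 5 and 4, with 0 lower in both lists. Of 8 endothelial genes 2 fell, Kdr and Tek, with sums of 302 to 434 and 237 to 357 CPM, and 1 (Kdr) was called in both of those fits. All 4 red blood cell genes tested fell, with sums of 29.4 to 584 and 3.13 to 28.2 CPM, of which 3 were called with a sex term and 0 without WT 4 and cKO 4. The sums of 6 podocyte genes overlapped at 183 to 346 and 110.0 to 273 CPM. Those of 10 T and B cell genes, of which 5 were tested, overlapped at 5.43 to 12.6 and 9.79 to 16.9 CPM. No tested gene of either list was called. Of 7 adipocyte genes tested 1 rose, Retn, and the sums overlapped at 36.4 to 138 and 46.1 to 266 CPM, with 0 called with a sex term and 1 without WT 4 and cKO 4. All 8 tubular injury genes rose, with sums of 649 to 2359 and 11969 to 26382 CPM, and 8 and 7 were called in those fits. Every sum covers all genes of its list, also those not tested, so 11 collecting duct, 5 red blood cell and 8 adipocyte genes. No marker in these lists was at 0 in all 8 libraries. The part of cell make-up in the results below was not tested. In whole kidney RNA, fewer cells of a type and less RNA per cell cannot be told apart.

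The comparison asked whether the transcripts of these regulators differed between cKO and WT kidneys. The coactivator Ppargc1a fell to 0.392 of the WT mean, the receptor Esrrg to 0.401 and Polg, the mitochondrial DNA polymerase, to 0.619. These were the 3 of 10 regulators called, where a call means an edgeR p under 0.05 after adjustment across the 13829 genes. Of all tested genes 7.14% were called lower, 9.57% higher and 16.7% in either direction. None was called higher in edgeR, in DESeq2, which called 5 lower, or in limma-voom, which called 3 lower. At an unadjusted p under 0.05 edgeR had 6 lower and 0 higher, where 16.3% of all tested genes were lower at that threshold. For 5 of the 10, namely Ppargc1a, Ppargc1b, Esrra, Esrrg and Polg, all 4 cKO libraries lay below all 4 WT libraries. Groups that do not overlap were found for 22.6% of all tested genes, and with cKO lower for 9.56%. The median log2 fold change over the 10 was -0.62, beside -0.01 over all tested genes. With a sex term, which took the share of all genes called to 6.84%, edgeR called 0 of the 10, with 3 at an unadjusted p under 0.05, all of them lower, as were 8.24% of all genes. Without WT 4 and cKO 4 it also called 0, beside 4.1% of all genes tested in that fit, with 4 at an unadjusted p under 0.05, all lower, as were 9.05% of those genes.

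**Figure D1:**
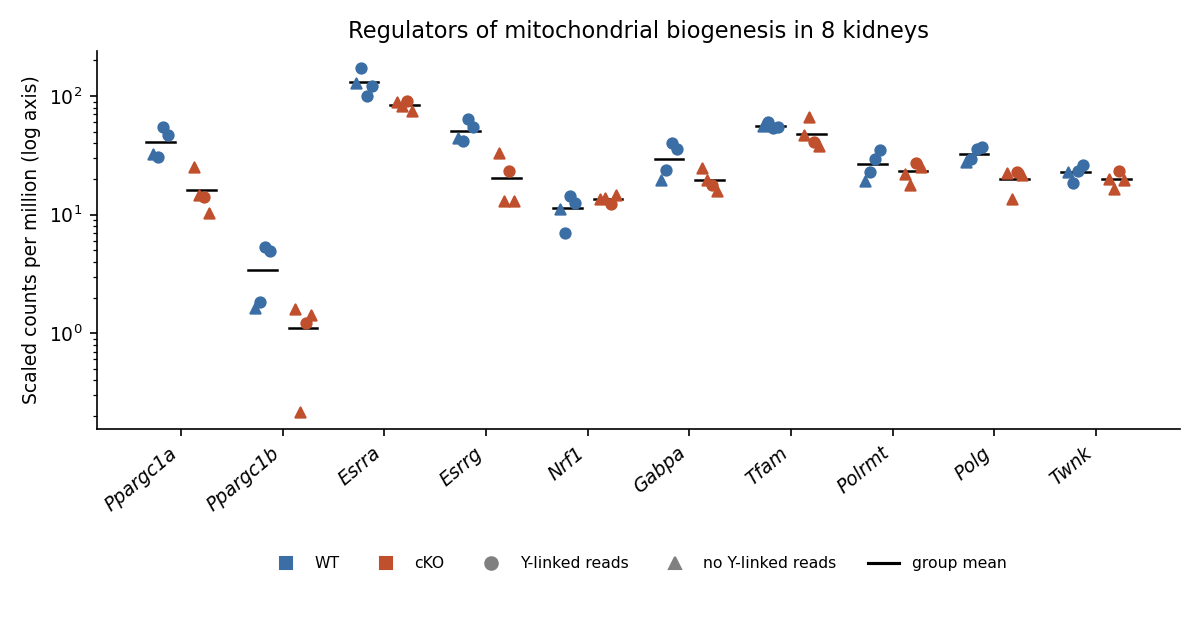
CPM (log axis) of the 10 regulators, 1 point per kidney, WT in blue and cKO in red, with circles for libraries with Y-linked reads, triangles for those without, and a bar at the group mean. The cKO points of Ppargc1a, Ppargc1b, Esrra, Esrrg and Polg all lie below the WT points, while those of the other 5 genes overlap.

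Ppargc1a (ENSMUSG00000029167, mm10 chromosome 5, 51454250 to 51567726, minus strand) held 32.3, 30.4, 54.7 and 46.6 CPM in the WT libraries (1 to 4), against 25.3, 14.6, 14.2 and 10.3 in the cKO libraries (1 to 4). WT 3 and WT 4 were the highest and cKO 4 the lowest, and the highest cKO library lay just below the lowest WT one. The means were 41.0 ± 11.6 and 16.1 ± 6.45 CPM (SD, n = 4), on 265 to 721 and 134 to 415 counts per library. This is a log2 fold change of -1.35, with an SE of 0.30 and a 95% interval of -2.01 to -0.69 (edgeR adjusted p = 0.0122). It stayed called without each single library, with adjusted p from 0.00441 to 0.0438. With a sex term it was -1.29 (edgeR adjusted p = 0.0649) and without WT 4 and cKO 4 it was -1.14 (edgeR adjusted p = 0.0963).

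Ppargc1b, the beta paralog (ENSMUSG00000033871, chromosome 18), was far less abundant. It held 1.64, 1.84, 5.31 and 4.98 CPM in the WT libraries (1 to 4), against 1.59, 0.218, 1.21 and 1.44 in the cKO libraries (1 to 4). The cKO 2 value rests on 2 counts, and the highest cKO value was close to the lowest WT value, so the groups were separated by little. In log2 terms the fold change was -1.59, with a wide 95% interval of -2.79 to -0.39 and did not pass (edgeR adjusted p = 0.0689). DESeq2, a term for age and the fit without WT 1 called it.

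A test of whether the paralogs changed by different amounts used the log2 ratio of Ppargc1a to Ppargc1b in each library. It was 3.66 ± 0.477 in WT and 3.82 ± 1.10 in cKO (SD, n = 4), a difference of 0.16 (exact two-sided permutation p = 0.857 over 70 assignments, of which the smallest possible p is 0.0286). The difference was smaller than the spread in either group, and without cKO 2 its sign turned, to -0.33.

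Of the estrogen-related receptors, Esrrg (ENSMUSG00000026610, chromosome 1, 187608791 to 188214885, plus strand) held 44.0, 42.1, 63.6 and 55.1 CPM in the WT libraries (1 to 4), against 33.0, 13.1, 23.1 and 13.1 in the cKO libraries (1 to 4). As for Ppargc1a, cKO 1 was the highest cKO library and WT 3 the highest WT library. The means were 51.2 ± 10.1 and 20.5 ± 9.54 CPM (SD, n = 4), and the log2 fold change of -1.31 had an SE of 0.31 (edgeR adjusted p = 0.0152). Without cKO 4 the call was lost narrowly, at -1.15 (edgeR adjusted p = 0.0529), with a sex term it was -1.18 (edgeR adjusted p = 0.0755), and without WT 4 and cKO 4 it was -1.14 (edgeR adjusted p = 0.106).

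Esrra (ENSMUSG00000024955, chromosome 19, 6910977 to 6921813, minus strand) held 128, 173, 101 and 122 CPM in the WT libraries (1 to 4), against 89.8, 81.7, 91.6 and 75.1 in the cKO libraries (1 to 4). The groups did not overlap, and WT 2 was the highest library. The log2 fold change was -0.63 (SE 0.21, 95% interval -1.09 to -0.18) and did not pass (edgeR adjusted p = 0.0592), while DESeq2, an age term and the fit without WT 3 called it. Esrra shares 73 bases of exon with Trmt112 on the opposite strand, and although the library kit marks strand, the sources used here do not give the counting's strand setting. The log2 ratio of Esrrg to Esrra was -1.35 ± 0.580 in WT and -2.14 ± 0.545 in cKO (SD, n = 4). The difference of -0.79 had an exact two-sided permutation p of 0.143, so a larger fall of Esrrg than of Esrra was not shown. Esrrb, the remaining receptor of the family, had 22.8 ± 9.61 and 9.31 ± 4.06 CPM (SD, n = 4), a log2 fold change of -1.28 that did not pass (edgeR adjusted p = 0.0529). It was named after its values were seen.

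**Figure D2:**
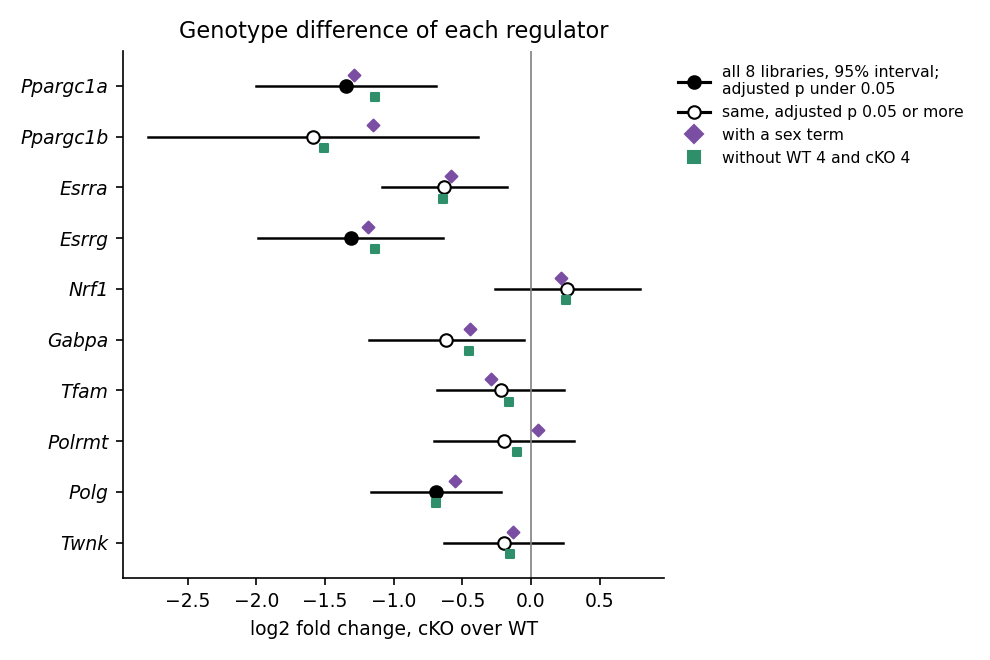
The log2 fold change (cKO over WT) of each regulator with its 95% interval from edgeR, filled where the adjusted p is under 0.05, beside the value with a sex term (diamonds) and without WT 4 and cKO 4 (squares). Ppargc1a and Esrrg lie between -1.35 and -1.14 in all 3 fits, and the intervals of Nrf1, Tfam, Polrmt and Twnk include 0.

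The nuclear respiratory factors were not called. Nrf1 (ENSMUSG00000058440, chromosome 6, 30047988 to 30153458) held 11.2, 7.0, 14.4 and 12.6 CPM in the WT libraries (1 to 4), against 13.6, 13.9, 12.2 and 14.8 in the cKO libraries (1 to 4). The cKO values lay within or just above the WT range, and WT 2 stood lowest. Nrf1 was the only one of the 10 with a fold change above 0, at 0.27 on the log2 scale (95% interval -0.26 to 0.79, edgeR adjusted p = 0.469). Gabpa (ENSMUSG00000008976, chromosome 16, 84834925 to 84863779) held 19.6, 23.8, 39.8 and 35.8 CPM in the WT libraries (1 to 4), against 24.6, 19.5, 17.6 and 15.9 in the cKO libraries (1 to 4). WT 3 and WT 4 stood above the other 6 libraries, and WT 1 and WT 2 lay inside the cKO range. Its log2 fold change of -0.62 (95% interval -1.18 to -0.05) did not pass (edgeR adjusted p = 0.122), though it passed without WT 1 at -0.78 (edgeR adjusted p = 0.0446). Among WT 1, cKO 1, cKO 2 and cKO 4, which lack Y-linked reads, it was 0.03. Gabpa shares 397 bases of exon with Atp5j on the opposite strand, a gene with 41984 counts over the 8 libraries against 2550 for Gabpa, so its counts are uncertain if strand was not used.

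Of the machinery that copies and reads mitochondrial DNA, only Polg was called. Polg (ENSMUSG00000039176, chromosome 7, 79446231 to 79466362, minus strand) encodes the catalytic subunit of the mitochondrial DNA polymerase. It held 27.9, 29.7, 35.6 and 36.9 CPM in the WT libraries (1 to 4), against 22.4, 13.6, 22.8 and 21.7 in the cKO libraries (1 to 4). The groups did not overlap, 3 of the cKO libraries were nearly equal, and cKO 2 lay below them. The log2 fold change was -0.69 (SE 0.22, 95% interval -1.16 to -0.22, edgeR adjusted p = 0.0488). This call sits at the threshold: it was lost in 18 of 25 alternatives, among them 7 of the 8 that leave out a single library (all but WT 1), with adjusted p up to 0.150 in those. With a sex term it was -0.56 (edgeR adjusted p = 0.249) and without WT 4 and cKO 4 it was -0.69 (edgeR adjusted p = 0.208). Polg shares 921 bases of exon with Fanci on the opposite strand, a gene with 53 counts over the 8 libraries.

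Tfam (ENSMUSG00000003923, chromosome 10, 71225464 to 71238280), which packages mitochondrial DNA and starts its transcription, held 55.5, 60.7, 53.3 and 54.8 CPM in the WT libraries (1 to 4), against 47.0, 66.8, 41.1 and 37.8 in the cKO libraries (1 to 4). The WT libraries were close together, 3 cKO libraries lay below them and cKO 2 above them. Tfam had a log2 fold change of -0.22 (95% interval -0.68 to 0.24, edgeR adjusted p = 0.497).

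Polrmt, the mitochondrial RNA polymerase (ENSMUSG00000020329, chromosome 10, 79736123 to 79746581), held 19.1, 22.8, 29.2 and 34.9 CPM in the WT libraries (1 to 4), against 22.2, 17.8, 27.5 and 25.1 in the cKO libraries (1 to 4). The groups overlapped throughout, with a log2 fold change of -0.20 (95% interval -0.71 to 0.32, edgeR adjusted p = 0.589). Twnk, the helicase that opens mitochondrial DNA ahead of the polymerase (ENSMUSG00000025209, chromosome 19, 45005663 to 45012762), held 23.0, 18.5, 23.4 and 26.2 CPM in the WT libraries (1 to 4), against 19.8, 16.5, 23.3 and 19.6 in the cKO libraries (1 to 4). Its groups overlapped too, with a log2 fold change of -0.20 (95% interval -0.63 to 0.23, edgeR adjusted p = 0.509). Twnk shares 507 bases of exon with Mrpl43 on the opposite strand, a gene with 5601 counts in total against 2224 for Twnk. The Twnk counts are therefore uncertain if strand was not used. These intervals leave room for falls to 0.622 of the WT level for Tfam, 0.612 for Polrmt and 0.645 for Twnk. Apart from the paralog pairs, whether one regulator changed more than another was not tested.

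Levels of different genes were compared per kilobase of annotated exon. In WT, Esrra stood first at 29.9 ± 6.87 CPM per kb (SD, n = 4), then Tfam at 12.6 ± 0.726, Esrrg at 8.25 ± 1.62 and Ppargc1a at 6.22 ± 1.77. Twnk at 5.67 ± 0.794, Polrmt at 5.66 ± 1.48 and Gabpa at 5.23 ± 1.69 followed, then Polg at 3.03 ± 0.408, Nrf1 at 1.10 ± 0.306 and Ppargc1b at 0.862 ± 0.494. Neighbours from Esrrg down to Gabpa overlapped over the 4 libraries, as did Nrf1 and Ppargc1b, so their order is not resolved. In cKO, Esrra at 19.3 ± 1.74 and Tfam at 10.9 ± 2.93 kept the first places, and Polrmt and Twnk, at 4.94 ± 0.888 and 4.94 ± 0.685, came next. Gabpa at 3.41 ± 0.659, Esrrg at 3.31 ± 1.54 and Ppargc1a at 2.44 ± 0.978 followed. Polg at 1.88 ± 0.408, Nrf1 at 1.33 ± 0.102 and Ppargc1b at 0.279 ± 0.154 came last. In cKO, neighbours from Polrmt down to Nrf1 overlapped, so their order is not resolved either, and a change of order between genotypes was not tested. The length counts every annotated exon of a gene, so a gene with long exons that the kidney does not use is placed too low.

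**Figure D3:**
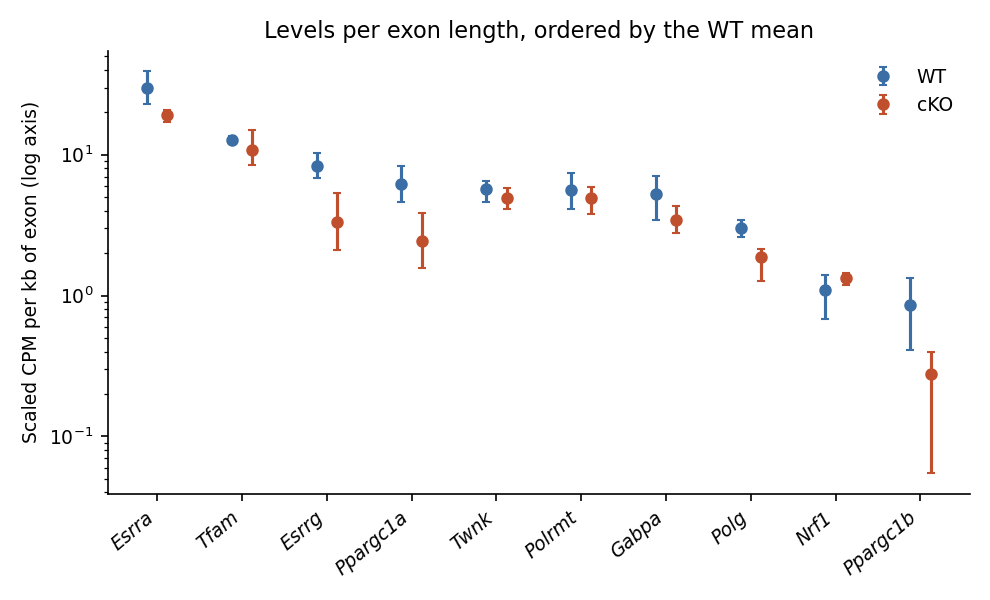
Mean scaled CPM per kilobase of annotated exon (log axis) of the 10 regulators in WT (blue) and cKO (red), ordered by the WT mean, with bars from the lowest to the highest of the 4 libraries. Esrra and then Tfam lie above the other 8 genes in both genotypes with no overlap. In WT the ranges of Esrrg, Ppargc1a, Twnk, Polrmt and Gabpa overlap between neighbours. In cKO they do so too, except for Ppargc1a (highest 3.84) and Twnk (lowest 4.12), which do not overlap.

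The genes whose log2 CPM followed Ppargc1a most closely over the 8 libraries, among 8662 genes with a mean of at least 10 CPM, were Pcmtd2, Pja2, Add3, Mut (which encodes the mitochondrial methylmalonyl-CoA mutase) and Slc30a9, with Pearson r from 0.986 to 0.992. Those closest to Esrrg were Lrrc8b, Aldh6a1 and Mccc1 (mitochondrial enzymes of valine and of leucine breakdown for Aldh6a1 and Mccc1), Usp33 and Pdha1 (the E1 alpha subunit of pyruvate dehydrogenase), with r from 0.994 to 0.996. The points share the genotype difference and the scaling of each library, and with 8 points and 8662 genes such values are a description. Pcmtd2, Add3, Mut, Lrrc8b, Aldh6a1, Usp33 and Mccc1 fell, with log2 fold changes from -0.69 to -1.45, while Pja2 (-0.58), Slc30a9 (-0.40) and Pdha1 (-0.72) did not pass in edgeR.

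Partner nuclear receptors and other coactivators of the PGC-1 network were lower where they were called. Of 20 tested, 6 fell and 0 rose by edgeR adjusted p, beside 7.14% of all tested genes called lower and 9.57% higher. The median was -0.62 on the log2 scale. With a sex term 2 were called lower and without WT 4 and cKO 4 only Perm1. In those fits 6.84% and 4.1% of all tested genes were called in either direction. Perm1, a muscle-type regulator that is induced by PGC-1 and the estrogen-related receptors, held 10.7, 6.89, 5.55 and 4.33 CPM in the WT libraries (1 to 4), against 0.244, 0, 0.640 and 0.783 in the cKO libraries (1 to 4). The groups were far apart, on 60 to 124 counts per WT library and 0 to 12 per cKO library. Its log2 fold change was -3.93 (SE 0.59, edgeR adjusted p = 0.00154), and it stayed called with a sex term (-4.05, edgeR adjusted p = 0.00288) and without WT 4 and cKO 4 (-4.60, edgeR adjusted p = 0.0095). Thrb, a thyroid hormone receptor, fell from 28.0 ± 6.97 to 9.14 ± 3.41 CPM (SD, n = 4; edgeR adjusted p = 0.00515), and stayed called with a sex term (edgeR adjusted p = 0.0331) but not without WT 4 and cKO 4 (edgeR adjusted p = 0.0566). Lpin1, a phosphatidate phosphatase that coactivates PPAR alpha, fell from 60.8 ± 26.7 to 23.9 ± 7.76 CPM, and the coactivator Ncoa2 from 40.4 ± 17.2 to 18.0 ± 5.94. Hnf4a, a receptor of proximal tubule identity, and Ppara, the fatty acid-sensing receptor, were named after their values were seen. Hnf4a fell from 642 ± 142 to 322 ± 88.2 CPM and Ppara from 31.0 ± 10.4 to 11.9 ± 6.06. The calls of Lpin1, Ncoa2, Hnf4a and Ppara were lost with a sex term, without WT 4 and cKO 4 together, and in 4 to 6 of the 8 fits that leave out a library, among them those without WT 3, WT 4, cKO 2 or cKO 4. Pprc1, the remaining coactivator of the PGC-1 family, held 7.39 ± 4.60 and 8.16 ± 3.22 CPM (SD, n = 4), with a log2 fold change of 0.14 (edgeR adjusted p = 0.856), and was also named after its values were seen.

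Of 29 tested genes taught as targets of PGC-1 and the estrogen-related receptors, 4 fell, 2 rose and 23 were not called, so the share called was near the 16.7% of all tested genes. The median was -0.36 on the log2 scale, and for 12 of the 29 the groups did not overlap, beside 22.6% of all tested genes. Acadm, the medium-chain acyl-CoA dehydrogenase of fatty acid oxidation, held 1443, 1614, 1360 and 1137 CPM in the WT libraries (1 to 4), against 548, 332, 453 and 336 in the cKO libraries (1 to 4). All 4 cKO libraries lay far below the lowest WT library, and the log2 fold change of -1.74 had an SE of 0.27 (edgeR adjusted p = 0.00205). Cpt1b, a carnitine palmitoyltransferase, fell from 27.1 ± 2.50 to 10.6 ± 3.87 CPM (edgeR adjusted p = 0.0072), and the angiogenic factor Vegfa from 83.7 ± 25.2 to 29.6 ± 6.68 (edgeR adjusted p = 0.00361). These 3 stayed called with a sex term, without each single library and without WT 4 and cKO 4. The uncoupling protein Ucp2 rose from 80.7 ± 20.6 to 230.5 ± 119.7 CPM (edgeR adjusted p = 0.0154), a call that a sex term ended (edgeR adjusted p = 0.0557). Pdk4, the kinase that shuts off pyruvate dehydrogenase, rose from 11.7 ± 3.81 to 36.4 ± 26.4 CPM, and the complex I subunit Ndufs1 fell from 270.0 ± 44.5 to 141 ± 42.8. Both were named after their values were seen and were lost with a sex term and without WT 4 and cKO 4 together. Pdk4 was also lost without WT 3, WT 4, cKO 2 or cKO 4, and Ndufs1 without these or WT 2. Without WT 4 and cKO 4, Ucp2 and Pdk4 stood at 0.93 and 0.87 on the log2 scale, against 1.52 and 1.64 with them, and neither passed. Markers of the proximal tubule, where Acadm is abundant, had lower sums in the cKO libraries, as given above, and their part in these values was not tested.

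**Figure D4:**
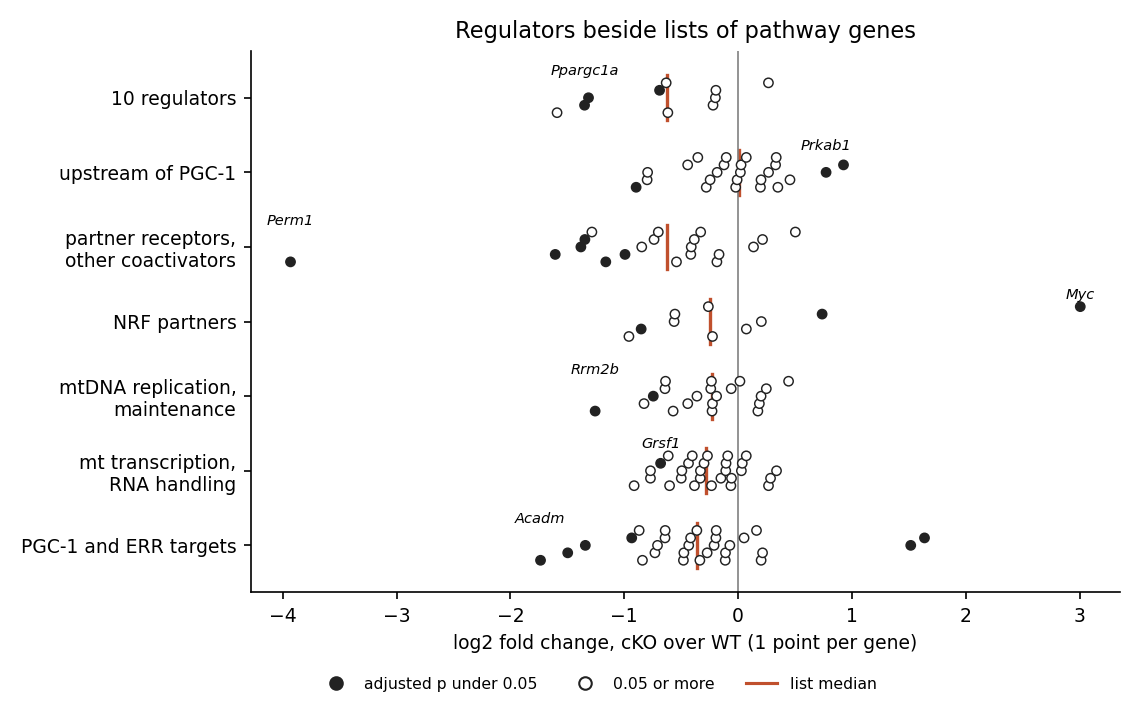
The log2 fold change (cKO over WT) of every tested gene of the 10 regulators and of 6 lists of pathway genes, 1 point per gene, filled where the edgeR adjusted p is under 0.05, with the list median as a red line. Perm1 at -3.93 and Myc at 3.00 lie farthest from 0, and the median of the upstream regulators is at 0.01.

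Upstream of PGC-1, 2 of 24 tested genes rose and 1 fell, with a median of 0.01. Of all tested genes 9.57% were called higher, 7.14% lower and 16.7% in either direction. Prkab1, a beta subunit of the energy sensor AMPK, rose from 39.0 ± 3.58 to 66.5 ± 10.5 CPM (edgeR adjusted p = 0.0183). The arginine methyltransferase Prmt1 rose from 39.1 ± 9.25 to 74.2 ± 23.7 (edgeR adjusted p = 0.0322). Prkaa2, a catalytic subunit of AMPK, fell from 135 ± 50.8 to 72.4 ± 14.7 (edgeR adjusted p = 0.0488). All 3 calls were lost with a sex term, without WT 4 and cKO 4 together, and in 3, 4 and 6 of the 8 fits that leave out a library, each among them without WT 3, WT 4 or cKO 4.

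Of 10 genes listed around the nuclear respiratory factors 2 rose and 1 fell, with a median of -0.24, beside 9.57% of all tested genes called higher and 7.14% lower. The list is broader than cofactors of NRF1 and GABP, and the called genes Nfe2l2 and Sirt3 are not taken as such cofactors. Nfe2l2 is a different gene from those of GABP, the factor called NRF2 above. Myc, a growth factor-induced transcription factor, rose from 2.11 ± 0.792 to 17.2 ± 11.7 CPM (SD, n = 4; log2 fold change 3.00, edgeR adjusted p = 0.00192), and stayed called with a sex term (edgeR adjusted p = 0.0131) and without WT 4 and cKO 4 (edgeR adjusted p = 0.0125). Nfe2l2, the regulator of antioxidant genes, rose from 70.9 ± 6.28 to 118 ± 17.8 CPM (edgeR adjusted p = 0.022). The mitochondrial deacetylase Sirt3 fell from 92.6 ± 22.4 to 51.3 ± 9.82 (edgeR adjusted p = 0.0295). Sirt3 shares exon sequence with Psmd13 and Ric8a on the opposite strand. These genes had 11399 and 4590 counts in total against 7233 for Sirt3, so the Sirt3 counts are uncertain if strand was not used. The calls of Nfe2l2 and Sirt3 were lost with a sex term, without WT 4 and cKO 4 together, and singly without WT 2, WT 4 or cKO 4, and Sirt3 also without cKO 2.

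Around Polg and Twnk, 2 of 20 tested genes of mitochondrial DNA replication and maintenance fell and 0 rose, with a median of -0.23. Rrm2b, a ribonucleotide reductase subunit that supplies nucleotides in resting cells, fell from 35.6 ± 8.61 to 14.9 ± 4.55 CPM (log2 fold change -1.26, edgeR adjusted p = 0.0107). Rrm2b stayed called without each single library, but not with a sex term (edgeR adjusted p = 0.0834) or without WT 4 and cKO 4 together (edgeR adjusted p = 0.0778). Sucla2, a subunit of succinyl-CoA ligase, fell from 225 ± 8.15 to 134 ± 24.1 CPM (edgeR adjusted p = 0.0289). Around Tfam and Polrmt, 1 of 28 tested genes of mitochondrial transcription and RNA handling fell and 0 rose, with a median of -0.28. It was the RNA granule protein Grsf1, from 189 ± 17.4 to 118 ± 18.8 CPM (edgeR adjusted p = 0.0372). The calls of Sucla2 and Grsf1 were lost with a sex term, without WT 4 and cKO 4 together, and singly without WT 2, WT 3, WT 4, cKO 3 or cKO 4, and Sucla2 also without cKO 2. The calls in these lists, 2 of 20 and 1 of 28, were all lower. Of all tested genes 7.14% were called lower and 16.7% in either direction.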

How the data were processed

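RNA sequencing of 8 kidneys was analysed. The deposited values are expected counts per Ensembl gene, which the authors estimated with RSEM after STAR alignment to mm10, per the submitters' processing notes. Library totals differ between files, as for unscaled counts. Tool versions, the annotation release and whether strand was used: not given in the sources used here. Expected counts were rounded. Genes were filtered with filterByExpr, scaled by TMM, and tested with edgeR's quasi-likelihood test (robust, two-sided) with Benjamini-Hochberg adjustment over 13829 genes and a threshold of 0.05. CPM uses TMM-scaled library sizes. Ratios used log2 CPM with a prior count of 2 and exact permutation over libraries. Symbols, positions and exon lengths came from GENCODE M21 of the same build, and 47224 identifiers matched. Promoters came from RefSeq. The edgeR fit was tested on simulated counts. It called 17% of genes given a 2-fold change and 88% of those given a 4-fold change. The simulated fit made 111 calls among 13655 genes, against 2310 calls in the data. With so few calls the adjusted threshold is stricter, so these shares do not measure how often the fit to the data calls such changes. A gene not called may still differ. The permutation test was checked on a fixed set of values with a known p.

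The genes and lists were chosen with earlier results of these data known. Named genes are the 10 regulators, Cox10, up to 4 called genes per list, taken by lowest adjusted p, and the 5 nearest in pattern to Ppargc1a and Esrrg. Libraries with at least 10 Y-linked counts were taken as male. Replicate numbers were not taken as pairs. The labels do not say how the mice relate. The p-values set the genotype difference against the spread between animals within a group, and treat the animals as independent. Alternatives covered scaling, filters, DESeq2, limma-voom, covariates and libraries left out. Software was Python 3.11.15 with pandas 2.3.3 and matplotlib 3.10.9, and R 4.3.3 with DESeq2 1.42.0, limma 3.58.1 and edgeR 4.0.16.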

Additional observations from a re-analysis of the deposited data

Results flagged for a closer look

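One value of a regulator stood apart within its group. Polg in cKO 2 was 13.6 CPM, where the other 3 cKO libraries lay between 21.7 and 22.8, a gap of 0.881 of the group's range, which is above Dixon's 95% critical value for 4 samples. Chance flags about 1 in 20 groups, and 22 groups were checked (10 regulators and Cox10 in each genotype). Leaving out cKO 2 ended the call of Polg, at a log2 fold change of -0.54 (edgeR adjusted p = 0.0791).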

How the results depend on the processing

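The number of regulators called, 3, became 5 with DESeq2 or an age term, and 0 with a sex term, within the libraries with Y-linked reads, within those without, or without replicate 4 of both groups. It ranged from 1 to 5 when a single library was left out (1 without cKO 4, 5 without WT 1). Over all genes 2310 were called, against 946 with a sex term, 482 and 121 within the libraries with and without Y-linked reads, 1398 without the 2.5-month pair, 568 without replicate 4 of both groups, and 1155 (without cKO 4) to 3093 (without WT 1) without a single library, with 1288 without WT 4 and 1440 without WT 3. Library size scaling moved the median of all genes by 0.159 and the split of calls from 1323 higher and 987 lower to 1866 and 550. Ppargc1a kept its sign in all 25 alternatives and its call in 21, Esrrg in 20 and Polg in 7. Signs turned for Gabpa within the libraries without Y-linked reads (0.031), for Polrmt there (0.18) and with a sex term (0.052), and for Twnk within those with Y-linked reads (0.035). The Ppargc1a to Ppargc1b ratio difference of 0.16 became -0.035 with a prior count of 5 and -0.24 without the 2.5-month pair, and ranged from -0.33 to 0.53 without a single library. The Esrrg to Esrra difference kept its sign in every alternative run. The cause of these changes was not tested.

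The replicate block left 3 regulators called and 2207 genes, and changed no other call among the 10. Correlations of same-numbered WT and cKO deviations were -0.078, 0.281, 0.116 and -0.00236, against -0.282 to 0.2 between different numbers. With the replicate block the ratio differences had exact p of 0.875 and 0.25, where 4 pairs cannot go below 0.125. A term for the header number run, chosen after seeing the data, left 2 regulators called. Ppargc1b is limited by depth, with 2 to 77 counts per library.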

Other observations

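In the WT group the libraries ordered most of the regulators alike. WT 3 and WT 4 were the 2 highest of the 4 WT libraries for 8 of the 10 regulators, and the 2 lowest for the other 2, Esrra and Tfam. Among all 13829 tested genes WT 3 and WT 4 were the 2 highest for 33.1% and the 2 lowest for 30%. This pattern was noticed in the data and was not tested.

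The difference in genotype effect between sexes was tested as an interaction, and none of the 10 regulators passed (smallest edgeR unadjusted p = 0.14, adjusted p = 1). That smallest p was for Gabpa, at -0.91 within the libraries with Y-linked reads and 0.03 within those without. Each of these contrasts rests on a single library on one side.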
